A study of Mus musculus with 4 samples.

Results

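The genes described here are nuclear-encoded subunits of respiratory complexes III, IV and V, together with cytochrome c, the inhibitory factor Atpif1 and AA467197, a gene related to Ndufa4. Members were taken as the genes whose symbol begins with Uqcr, Cox4, Cox5, Cox6, Cox7, Cox8 or Atp5, plus Cyc1, Cycs, Ndufa4, AA467197 and Atpif1, where a probe set named that gene alone. This gave 47 of the 18193 genes measured, with 9 in complex III, 19 in complex IV, 18 in complex V and Cycs between complexes III and IV. The probe set of each gene was chosen by its brightness, as the one with the highest mean over the 4 arrays. AA467197 was listed by name with its difference between the genotypes already known, so its values are given as a description.

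Follicular helper T (TFH) cells, the CD4+ T cells that help B cells in germinal centers, were sorted from spleen at day 8 after infection with LCMV Armstrong, a virus strain that causes an acute infection. Rictor-null TFH cells came from Rictor fl/fl Cd4-Cre mice, and WT TFH cells from Rictor fl/fl littermates without the Cre transgene, so that both groups carried the floxed Rictor alleles and both were infected. Cd4-Cre is active from the thymus onward in T cells generally, and is not limited to TFH cells. Rictor is a defining component of mTOR complex 2. Mice were infected as young adults, and both sexes were used. Each group had 2 arrays, each made from a pool of RNA. The series text gives at least 5 mice per pool, and a legend of the study gives other numbers. The comparison asked which transcripts differ in TFH cells that lack Rictor.

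Complex III passes electrons from ubiquinol to cytochrome c, complex IV (cytochrome c oxidase) passes them from cytochrome c to oxygen, and complex V (ATP synthase) uses the resulting proton gradient to make ATP. The catalytic center of complex IV and part of the proton channel of complex V are encoded in mitochondrial DNA. Nuclear subunits of complex IV surround its center, stabilize it or regulate it. Other nuclear subunits are themselves working parts, such as the heme protein Cyc1 of complex III and the catalytic subunit Atp5b of complex V. Activated T cells raise both glycolysis and mitochondrial respiration, and transcription of many nuclear-encoded respiratory genes depends on the factors NRF1, GABP (an ETS family factor) and YY1.

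The promoters of 5 members are shown as examples, and they do not stand for the other members. AA467197 and Ndufa4 are a pair of related genes that were both higher in Rictor-null TFH. Atp5l and Uqcr11 were higher and hold letters of both the ETS and NRF1 motifs. Uqcrc1 holds the NRF1 letters and was lower. Each sequence is RefSeq's for the GRCm38.p6 build and runs from 250 bases before to 50 bases after the start of the gene, written 5′ to 3′ on the strand of the gene. Capitals mark matches on either strand to CCGGAAG (ETS), GCGCATGC (NRF1) or AAGATGG (YY1). The windows lie at chr2:122637637-122637936, plus strand, for AA467197, at chr6:11907401-11907700, minus strand, for Ndufa4, at chr9:44920693-44920992, minus strand, for Atp5l, at chr10:80406772-80407071, minus strand, for Uqcr11, and at chr9:108936398-108936697, plus strand, for Uqcrc1.
AA467197: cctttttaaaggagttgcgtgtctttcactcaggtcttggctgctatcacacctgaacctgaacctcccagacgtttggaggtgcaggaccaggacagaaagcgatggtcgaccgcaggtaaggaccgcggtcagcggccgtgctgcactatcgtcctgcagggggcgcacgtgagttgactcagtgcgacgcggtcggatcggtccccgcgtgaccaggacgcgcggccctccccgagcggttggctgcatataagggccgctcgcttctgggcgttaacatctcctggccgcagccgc
Ndufa4: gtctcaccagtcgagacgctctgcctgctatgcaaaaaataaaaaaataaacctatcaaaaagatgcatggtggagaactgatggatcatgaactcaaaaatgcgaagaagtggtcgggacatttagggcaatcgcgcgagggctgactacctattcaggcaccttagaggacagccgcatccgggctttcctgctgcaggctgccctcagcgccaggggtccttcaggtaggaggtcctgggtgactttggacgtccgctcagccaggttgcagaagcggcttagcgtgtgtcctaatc
Atp5l: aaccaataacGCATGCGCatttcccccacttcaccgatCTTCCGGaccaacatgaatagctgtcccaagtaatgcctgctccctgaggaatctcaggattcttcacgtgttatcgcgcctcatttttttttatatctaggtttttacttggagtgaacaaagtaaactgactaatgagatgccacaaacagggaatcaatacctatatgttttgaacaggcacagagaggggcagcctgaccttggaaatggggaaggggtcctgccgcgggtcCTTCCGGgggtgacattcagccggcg
Uqcr11: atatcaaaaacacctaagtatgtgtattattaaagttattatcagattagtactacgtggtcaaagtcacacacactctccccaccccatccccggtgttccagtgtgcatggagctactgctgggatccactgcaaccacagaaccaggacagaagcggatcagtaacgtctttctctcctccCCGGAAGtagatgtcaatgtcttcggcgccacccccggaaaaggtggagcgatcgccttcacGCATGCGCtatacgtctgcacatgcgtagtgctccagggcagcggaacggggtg
Uqcrc1: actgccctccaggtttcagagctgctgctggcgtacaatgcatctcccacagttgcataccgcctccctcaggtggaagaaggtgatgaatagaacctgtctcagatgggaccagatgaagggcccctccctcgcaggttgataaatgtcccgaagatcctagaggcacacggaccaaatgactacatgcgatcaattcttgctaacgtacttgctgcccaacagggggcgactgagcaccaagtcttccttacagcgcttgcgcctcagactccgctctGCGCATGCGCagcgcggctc

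The AA467197 and Ndufa4 windows held none of the 3 motifs. The Atp5l window held 2 ETS matches and 1 NRF1 match, and the Uqcr11 window held 1 of each. In the Uqcrc1 window, NRF1 matches on the 2 strands overlap in a single stretch. Among members not shown, Atp5k (higher) and Cox6a1 (not called) also held both ETS and NRF1 letters. Uqcr10, Atpif1 and Cox7a2 were higher and held none of the 3 motifs. A window was found for 36 of the 47 members, which have 39 windows because some genes have more than 1 start. ETS letters occurred in 28.2% of the member windows (11 of 39), against 8.86% of all 32851 windows. NRF1 letters occurred in 17.9% of the member windows (7 of 39) against 2.71% of all windows, and YY1 letters in 10.3% (4 of 39) against 6.34%. Windows were not matched for base composition. Of the 21 members with a window that were higher in Rictor-null TFH (limma, adjusted p under 0.05), 9 held ETS letters, against 2 of the 13 that were not called and 0 of the 2 that were lower. For NRF1 the counts were 5 of 21, 1 of 13 and 1 of 2, and for YY1 3 of 21, 1 of 13 and 0 of 2. The 13 include the tissue-restricted forms Cox6b2, Cox7a1, Cox7b2 and Cox8b of complex IV, which held none of the motifs. These differences by call were not tested.

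On the arrays, the probe set of Rictor with the highest signal read 266.5 and 279.4 in Rictor-null TFH, against 333.6 and 302.8 in WT TFH, a log2 fold change of -0.21 ± 0.06 (SE, n = 2 arrays per group, limma, adjusted p = 0.0366). The other 4 Rictor probe sets differed by -0.03 to 0.11. The exons that these probe sets read are not given in the sources used here, so they do not check the deletion. Within a group the arrays correlated at r = 0.998, and between groups at 0.993 to 0.994 (across probe sets, which are not independent replicates). Of 12 T cell and TFH identity genes, all brighter than the median probe set, 6 were lower in Rictor-null TFH and 0 higher: Bcl6 (-0.94), Il21 (-0.90), Cxcr5 (-0.70), Pdcd1 (-0.55), Cd3e (-0.32) and Cd4 (-0.26). The others were not called: the T cell genes Cd3d (0.01), Cd3g (0.04) and Icos (0.00), and Sh2d1a (0.11), Cd200 (0.08) and Cd40lg (-0.07). Over all 18193 genes, 7.18% were lower and 12.5% higher. Among those with a mean intensity of 500 or more, 25.7% were lower and 30.2% higher. Signal is given as the deposited intensity, in arbitrary units, and fold changes are on the log2(intensity + 16) scale. Levels are compared between groups for one probe set and not between probe sets. In cells pooled in this way, fewer cells of a type and less RNA per cell cannot be told apart.

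Transcripts of the 3 complexes were mostly higher in Rictor-null TFH. Of the 47 members, 26 were higher, 2 were lower and 19 were not called (limma, Benjamini-Hochberg adjusted p under 0.05). Over all 18193 genes, 12.5% were higher and 7.18% were lower. The median log2 fold change of the members was 0.18, against 0.01 for all genes, so the shifts were small for most genes. AA467197 is among the 26. Most members are bright, and bright genes were called more often: among the 1974 genes with a mean intensity of 500 or more, 30.2% were higher and 25.7% were lower, while of the 37 members in that range 62.2% (23) were higher and 5.41% (2) were lower. With the array of WT replicate 1 left out, 18 members were higher, and with that of WT replicate 2 left out, 17. In each of these fits WT TFH had 1 array, and the share called over all genes was not counted. The plot of intensities by array shows each member's 4 values.

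**Figure D1:**
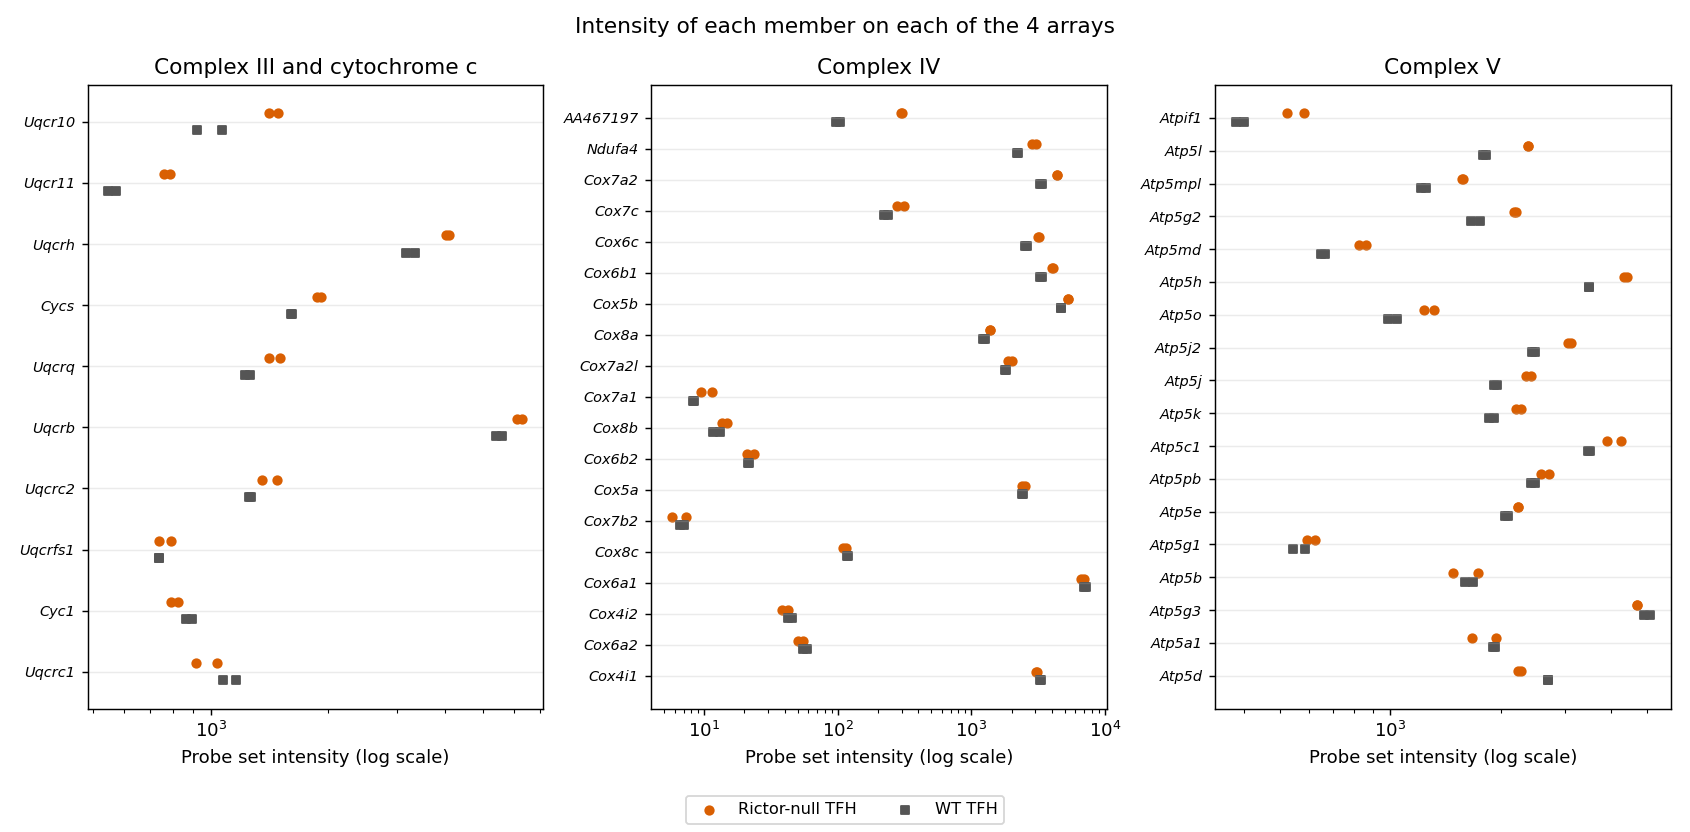
Intensity of the probe set of each member (x axis, arbitrary units, log scale) on each array, with orange circles for the 2 Rictor-null TFH arrays and grey squares for the 2 WT TFH arrays. Members run from the largest log2 fold change (top) to the smallest within each panel. AA467197 shows the widest gap, with 299.5 and 301.5 in Rictor-null TFH against 97.15 and 103.3 in WT TFH, and the other gaps are narrower.

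In complex III, 6 of 9 genes were higher in Rictor-null TFH and 1 was lower, with a median log2 fold change of 0.18. All 5 small accessory subunits were higher, with a median of 0.32. Uqcr10, which sits beside cytochrome c1, read 1484 and 1409 in Rictor-null TFH, against 1069 and 920.5 in WT TFH (log2 fold change 0.54 ± 0.06 SE, adjusted p = 7.43e-05). Uqcr11, which is associated with the Rieske protein, read 787.1 and 758.5 in Rictor-null TFH, against 571.0 and 545.6 in WT TFH (0.46 ± 0.05, adjusted p = 5.13e-05). For both genes, each Rictor-null array was above each WT array. Uqcrh, the hinge protein that helps cytochrome c1 bind cytochrome c, read 4086 and 4023 in Rictor-null TFH, against 3176 and 3331 in WT TFH (0.32 ± 0.04, adjusted p = 1.35e-04). Uqcrq, a ubiquinone-binding subunit, read 1506 and 1409 in Rictor-null TFH, against 1257 and 1226 in WT TFH (0.23 ± 0.05, adjusted p = 0.0043). Uqcrb, another small subunit near the quinone site, was 0.18 higher on the log2 scale.

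The larger subunits of complex III did not move together. The core proteins went in opposite directions, with Uqcrc2 higher by 0.16 and Uqcrc1 lower, at 916.5 and 1039 in Rictor-null TFH against 1161 and 1075 in WT TFH (-0.19 ± 0.06, adjusted p = 0.0445). The higher Rictor-null value of Uqcrc1 lay close to the lower WT one. Cyc1, the heme protein cytochrome c1, read 823.9 and 791.8 in Rictor-null TFH, against 896.8 and 864.8 in WT TFH, and was not called (-0.12 ± 0.05, adjusted p = 0.106). The Rieske iron-sulfur protein Uqcrfs1 had overlapping groups (0.04, 95% interval -0.07 to 0.16). Cycs, cytochrome c itself, read 1914 and 1875 in Rictor-null TFH against 1612 and 1609 in WT TFH and was higher (0.23 ± 0.04, adjusted p = 0.0016), as were its other probe sets above the median of all probe sets, drawn in the plot of probe sets. Several of these calls were lost with 1 array left out, some with a fold change about as large. Uqcrc1 was not called without Rictor-null replicate 1 (-0.10), WT replicate 1 (-0.14) or WT replicate 2 (-0.25), Uqcrc2 without Rictor-null replicate 2 (0.10), WT replicate 1 (0.17) or WT replicate 2 (0.15), and Uqcrb (0.20 and 0.15), Uqcrq (0.25 and 0.21) and Cycs (0.23 and 0.23) without WT replicate 1 or 2, in that order. The sign of Uqcrfs1 turned without Rictor-null replicate 1 (-0.01).

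**Figure D2:**
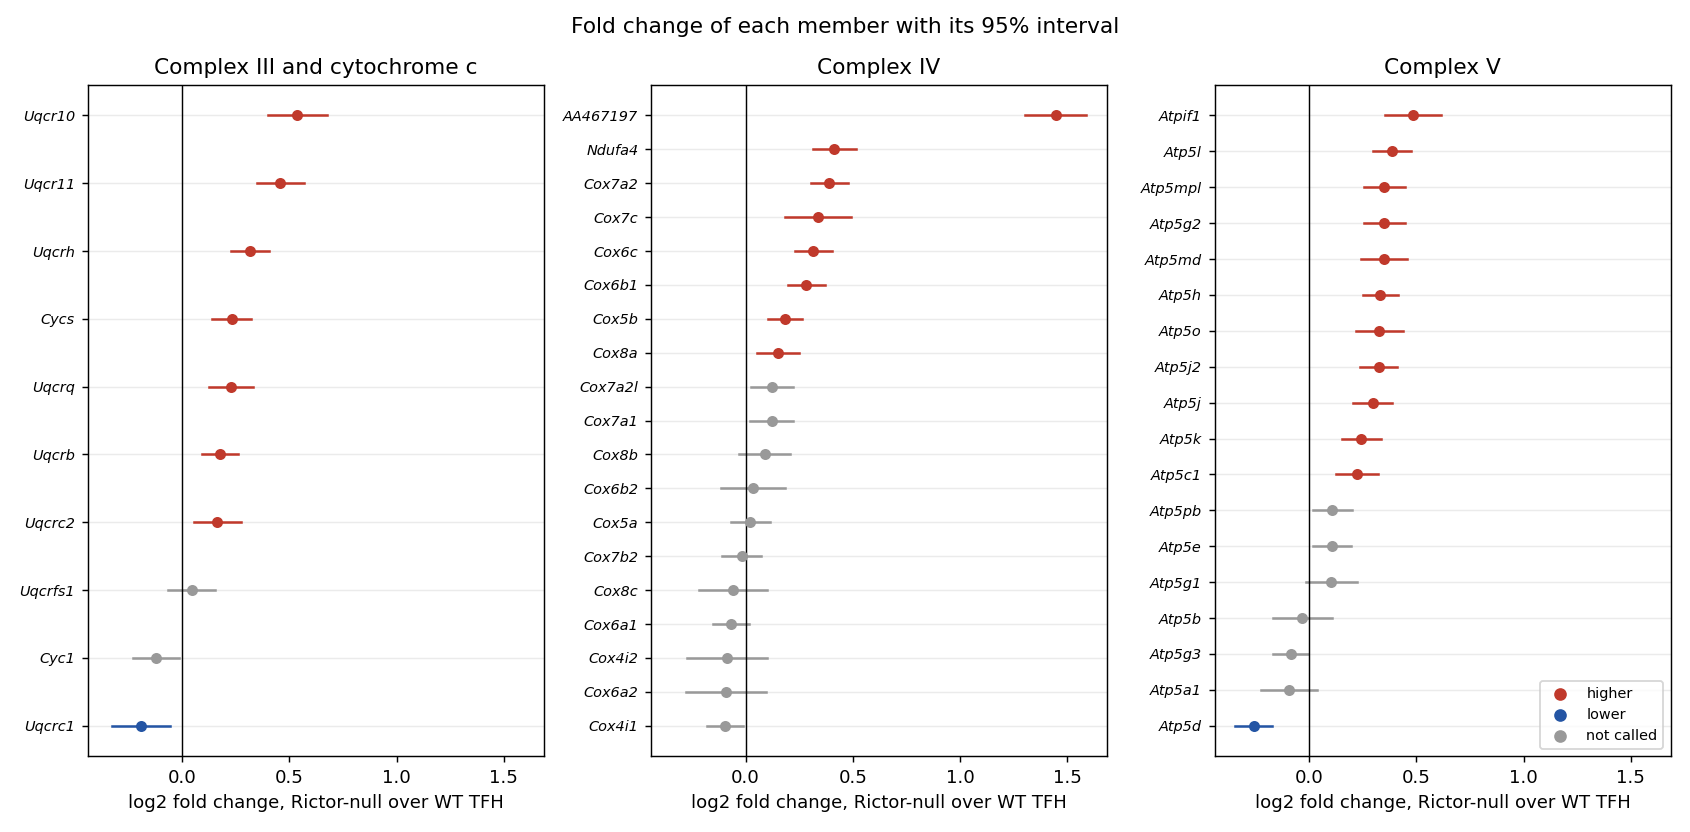
The log2 fold change of each member, Rictor-null over WT TFH (x axis), with its 95% interval as a line, n = 2 arrays per group. Red points were higher, blue points lower and grey points not called at an adjusted p of 0.05. Apart from AA467197, at 1.45, no member lies above the 0.54 of Uqcr10, and the lowest is Atp5d, at -0.26.

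Complex IV held the largest fold change and also the most genes that were not called. Of its 19 genes, 8 were higher in Rictor-null TFH and 0 lower, with a median log2 fold change of 0.12. All 7 members that are tissue-restricted forms belong to complex IV, and none of them was called. They hold its share and its median down beside the other complexes. The 10 common subunits of complex IV had a median of 0.23. AA467197 read 299.5 and 301.5 in Rictor-null TFH, against 97.15 and 103.3 in WT TFH, a 3.0-fold ratio of mean intensities. Its log2 fold change on the log2(intensity + 16) scale, which understates the ratio at this signal, was 1.45 ± 0.07 (SE). The 2 Rictor-null arrays nearly coincided, and the groups were far apart. This gene, also known as Nmes1, and as C15orf48 in human, encodes a protein related to Ndufa4. In the RefSeq annotation the gene is 3190 bases long on chromosome 2 and holds the 79-base hairpin of Mir147, which begins 2916 bases after the gene start. The mature miRNA was not measured here. Ndufa4, the gene that AA467197 resembles and a subunit of complex IV despite its name, read 3064 and 2834 in Rictor-null TFH, against 2233 and 2186 in WT TFH (0.41 ± 0.05, adjusted p = 5.06e-05), a difference in the same direction. Each of the 2 genes had 1 probe set.

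Of the 10 members in complex IV that are subunits expressed in most tissues, 7 were higher in Rictor-null TFH. Cox7b is not among the members. Cox7a2, the common form of subunit VIIa, read 4367 and 4382 in Rictor-null TFH, against 3406 and 3258 in WT TFH (0.39 ± 0.04, adjusted p = 2.92e-05). Cox6b1, the common form of subunit VIb, which faces the intermembrane space, read 4068 and 4029 in Rictor-null TFH, against 3382 and 3265 in WT TFH (0.28 ± 0.04, adjusted p = 2.38e-04). Neither gene's groups overlapped. Cox7c read 275.8 and 312.3 in Rictor-null TFH, against 219.9 and 237.9 in WT TFH (0.34 ± 0.07, adjusted p = 0.0044). Cox8a read 1388 and 1379 in Rictor-null TFH, against 1269 and 1222 in WT TFH (0.15 ± 0.04, adjusted p = 0.0311). Cox6c (0.32) and Cox5b (0.18) were also higher. These genes all encode small subunits built around the mitochondrially encoded core.

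The 3 common subunits that were not called are Cox4i1, Cox5a and Cox6a1. Cox4i1, the subunit through which ATP and ADP regulate the enzyme, read 3093 and 3059 in Rictor-null TFH, against 3246 and 3331 in WT TFH (-0.10, 95% interval -0.18 to -0.01, adjusted p = 0.116). Cox6a1 read 6957 and 6625 in Rictor-null TFH, against 7005 and 7237 in WT TFH (-0.07, 95% interval -0.15 to 0.02). For both, the Rictor-null arrays lay below the WT arrays, and the difference was not called. Cox5a differed by 0.02 (95% interval -0.07 to 0.11). The other probe sets of Cox5a had the opposite sign, at -0.094 and -0.089. Cox7a2l, the relative of Cox7a2 that links complexes III and IV into supercomplexes, read 2025 and 1890 in Rictor-null TFH, against 1806 and 1785 in WT TFH, and was not called (0.12 ± 0.05, adjusted p = 0.0831). Its other probe sets differed by 0.23 and 0.24, and Cox7a2l was called higher with the mean of all its probe sets (0.20, adjusted p = 0.0208) or with dim genes left out of the fit (adjusted p = 0.0431).

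None of the 7 tissue-restricted forms of complex IV subunits was called. The heart and muscle form Cox7a1 read 11.3 and 9.52 in Rictor-null TFH, against 8.37 and 8.17 in WT TFH. Cox8b, another heart and muscle form, read 14.7 and 13.6 in Rictor-null TFH, against 11.6 and 13.1 in WT TFH. Both were dimmer than the median probe set, at 20.2. Cox6a2, of heart and muscle, read 50.3 and 54.9 in Rictor-null TFH, against 59.2 and 55.0 in WT TFH, and the lung form Cox4i2 read 38.5 and 42.3 in Rictor-null TFH, against 42.1 and 45.6 in WT TFH. Of the testis forms, Cox6b2 read 23.4 and 21.1 in Rictor-null TFH, against 21.5 and 21.2 in WT TFH, Cox8c read 109.2 and 116.1 in Rictor-null TFH, against 119.6 and 116.4 in WT TFH, and Cox7b2, also below the median, read 5.73 and 7.34 in Rictor-null TFH, against 6.57 and 7.06 in WT TFH. Their log2 fold changes spanned -0.09 to 0.12. Without these 7 genes, 26 of 40 members were higher and the median was 0.23, and without AA467197 as well, 25 of 39, with a median again of 0.23.

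The calls of Cox7c (0.29 and 0.39), Cox5b (0.18 and 0.18) and Cox8a (0.18 and 0.12) were lost without WT replicate 1 or 2, in that order, and that of Cox8a also without Rictor-null replicate 1 (0.15) or 2 (0.15). Cox7a2l was called without Rictor-null replicate 2 (0.17), and without Rictor-null replicate 1 the signs of Cox5a (-0.01), Cox6b2 (-0.01) and Cox7b2 (0.03) turned.

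Complex V had the highest median of the 3 complexes. Of its 18 genes, 11 were higher in Rictor-null TFH, 1 was lower and 6 were not called, with a median log2 fold change of 0.27. All 5 membrane accessory subunits were higher (median 0.35), and these are the subunits that surround the proton channel and hold ATP synthase dimers together. Atp5l, subunit g, whose promoter is shown above, read 2368 and 2370 in Rictor-null TFH, against 1823 and 1788 in WT TFH (0.39 ± 0.04, adjusted p = 3.59e-05). Atp5mpl, a small proteolipid of the membrane part, read 1581 and 1569 in Rictor-null TFH, against 1250 and 1212 in WT TFH (0.35 ± 0.04, adjusted p = 1.08e-04). In both genes the arrays of a group were close and the groups well apart. The dimer subunits Atp5md (DAPIT, 0.35), Atp5j2 (subunit f, 0.32) and Atp5k (subunit e, 0.24) were higher too.

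Of the 4 peripheral stalk subunits, which hold the head still while the rotor turns, Atp5h (subunit d, 0.33), Atp5o (OSCP, 0.33) and Atp5j (factor 6, 0.30) were higher and Atp5pb (subunit b) was not called (0.11, 95% interval 0.02 to 0.20, adjusted p = 0.101). A second probe set of Atp5pb differed by 0.31, and the gene was called higher on that probe set alone (adjusted p = 9.37e-04) or with the mean of both (0.21, adjusted p = 0.0244). The 3 genes for the c subunit, whose products are the same mature protein of the rotor ring, differed among themselves. Atp5g2 read 2206 and 2169 in Rictor-null TFH, against 1761 and 1666 in WT TFH (0.35 ± 0.04, adjusted p = 1.2e-04), while Atp5g1 (0.10, 95% interval -0.02 to 0.22) and Atp5g3 (-0.09, 95% interval -0.17 to -0.00) were not called. These differences between the 3 genes were not tested. Atpif1, the inhibitor that stops ATP synthase from running in reverse, read 581.4 and 525.4 in Rictor-null TFH, against 380.0 and 401.1 in WT TFH (0.48 ± 0.06, adjusted p = 1.17e-04). It had the largest fold change in complex V.

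The 5 subunits of the F1 head, where ATP is formed, had a median log2 fold change of -0.03. Atp5d, subunit delta of the central stalk, read 2274 and 2235 in Rictor-null TFH, against 2697 and 2700 in WT TFH, and was lower (-0.26 ± 0.04, adjusted p = 5.44e-04). Its groups were separated by far more than the spread within either. The catalytic subunit Atp5b had overlapping groups (-0.03, 95% interval -0.17 to 0.11), as did its partner Atp5a1 (-0.09, 95% interval -0.22 to 0.04), and the small subunit Atp5e was not called (0.10, 95% interval 0.02 to 0.19, adjusted p = 0.0969). Atp5c1, the rotating subunit gamma, was higher by 0.22, but its other probe set, which is far dimmer, differed by -0.15. Calls were lost without WT replicate 1 or 2 for Atp5c1 (0.22 and 0.23) and without WT replicate 2 for Atp5k (0.22). Atp5pb was called without Rictor-null replicate 2 (0.15), Atp5a1 was lower without Rictor-null replicate 2 (-0.20) and had a positive sign without Rictor-null replicate 1 (0.01), and Atp5b had one without Rictor-null replicate 1 (0.08) or WT replicate 2 (0.01).

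**Figure D3:**
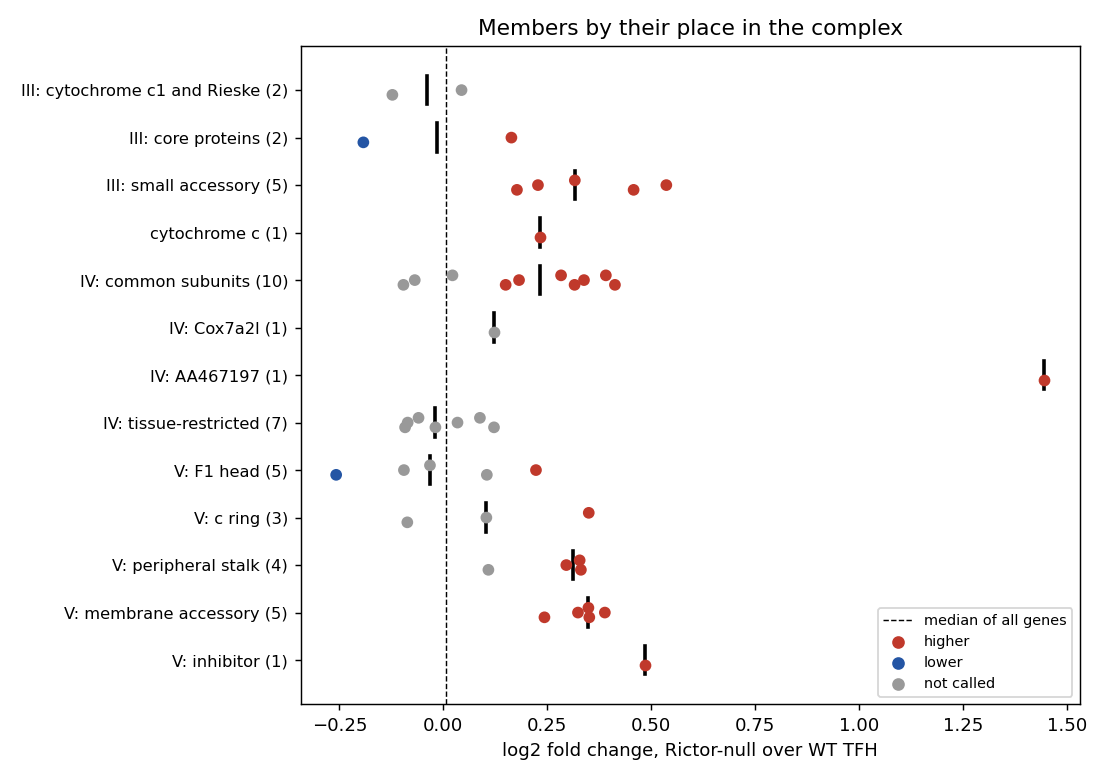
The log2 fold change of each member (x axis, Rictor-null over WT TFH) by its place in complex III, IV or V, with the number of genes in brackets. Points are coloured by call, black bars are medians and the dashed line is the median of all genes, 0.01. All 5 small accessory subunits of complex III and all 5 membrane accessory subunits of complex V lie to the right, while the F1 head spreads to both sides of 0, from Atp5d at -0.26 to Atp5c1 at 0.22, and the tissue-restricted forms of complex IV lie between -0.09 and 0.12.

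This grouping by place in the complex follows textbook structure, but was drawn up after the values were seen, and no test was made of a difference between the places.

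Probe sets that read the same gene mostly gave the same sign. The members had 92 probe sets, and 28 members had more than 1. Of the 37 further probe sets above the median of all probe sets, 31 differed in the same direction as the brightest of their gene. Above that median, the probe sets of Uqcr10, Cox7a2, Cycs, Cox5b and Atp5k all had positive differences. Atpif1 and Cox7c had a dimmer probe set with a smaller difference, of 0.02 and 0.07, and Uqcrq had one at 0.02. The mean of all probe sets left Atpif1 (0.19, adjusted p = 0.0575), Atp5g2 (0.11, 0.250), Uqcrq (0.10, 0.271), Cox7c (0.21, 0.218), Cox8a (0.08, 0.383) and Atp5c1 (0.04, 0.642) without a call. The calls of Uqcrq, Cox7c and Atp5c1 also rested on probe sets whose name marks them as able to read related sequences, and were lost when such probe sets were left out. Atp5d has only such probe sets, at -0.26 and -0.16, and so had no value then, and Uqcrh stood at 0.19 and was still called (adjusted p = 0.0056).

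**Figure D4:**
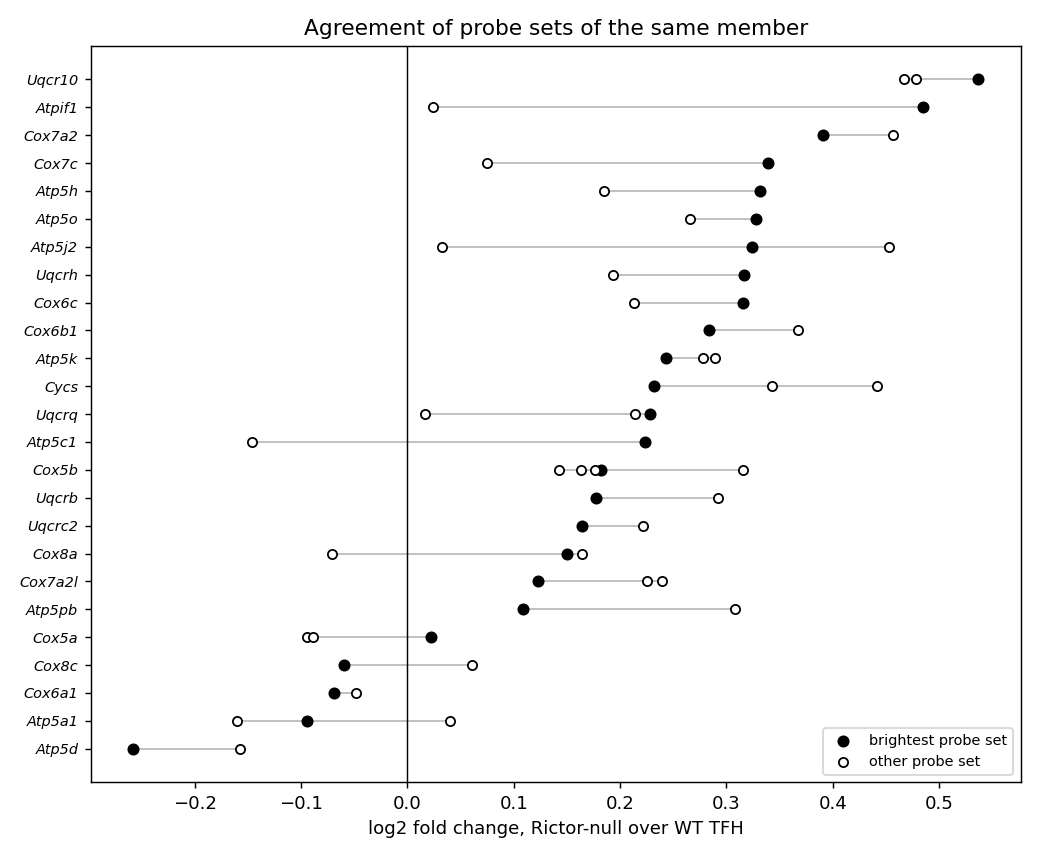
The log2 fold change (x axis, Rictor-null over WT TFH) of every probe set above the median signal, for the 25 members with more than 1. Filled points are the brightest probe set of each gene and open points the others, joined by a line. Most open points lie on the same side of 0 as the filled point, and the widest gaps belong to Atpif1, Atp5j2 and Atp5c1.

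Genes of the other respiratory complexes and of the mitochondrial ribosome were also called mostly higher. Of the 33 complex I subunits measured, 26 were higher in Rictor-null TFH and 0 were lower, with a median log2 fold change of 0.31, and of complex II with the other electron donors to ubiquinone, 7 of 14 were higher and 0 lower (median 0.22). Ndufb2, an accessory subunit of complex I, read 793.8 and 732.8 in Rictor-null TFH, against 468.0 and 493.3 in WT TFH (0.65, adjusted p = 8.75e-06), and Sdhd, a membrane anchor of complex II, read 1175 and 1120 in Rictor-null TFH, against 803.6 and 838.6 in WT TFH (0.47, adjusted p = 3.04e-05). Of 76 mitochondrial ribosomal proteins, which make the mitochondrially encoded subunits, 42 were higher and 0 lower (median 0.25). All these counts stand against 12.5% higher and 7.18% lower over all genes. Bright genes were called more often: with a mean intensity of 500 or more, 30.2% were higher and 25.7% lower. The adjusted p values are from limma over all genes.

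Of the assembly factors of complex IV, 12 of 25 were higher in Rictor-null TFH and 0 lower, with a median log2 fold change of 0.17. Slirp, which stabilizes mitochondrial mRNAs with Lrpprc, read 715.0 and 682.7 in Rictor-null TFH, against 465.3 and 460.7 in WT TFH (0.58, adjusted p = 1.08e-05). Coa6, which takes part in copper delivery to the enzyme (0.56, adjusted p = 1.38e-05), and Pet100, an assembly chaperone (0.56, adjusted p = 1.55e-05), differed by as much. For complex III, Uqcc2 (0.44, adjusted p = 1.36e-04) and Uqcc3 (0.28, adjusted p = 0.0017), which act on cytochrome b, were higher among 7 measured, and 0 were lower (median 0.09). For complex V, Tmem242 (0.35, adjusted p = 0.0076) and Fmc1 (0.30, adjusted p = 0.0122) were higher among 5, and 0 were lower, with a median of -0.08. Over all genes, 12.5% were higher and 7.18% lower, and among those with a mean intensity of 500 or more, 30.2% and 25.7%.

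Of 19 regulators of respiratory genes, 3 were higher in Rictor-null TFH and 2 were lower, shares near the 12.5% and 7.18% of all genes, and the median log2 fold change was -0.07. Yy1 read 803.9 and 755.6 in Rictor-null TFH, against 1011 and 973.4 in WT TFH (-0.34, adjusted p = 3.81e-04). Ppargc1b, a coactivator of mitochondrial genes, read 109.9 and 107.3 in Rictor-null TFH, against 146.8 and 151.1 in WT TFH (-0.41, adjusted p = 0.0012). Both were lower with no overlap of the groups. Polg2, a subunit of the mitochondrial DNA polymerase (0.25, adjusted p = 0.0105), was higher, as were Mterf1a (0.24) and Tfb1m (0.24). Nrf1 (-0.07, adjusted p = 0.530) and Gabpa (-0.08, adjusted p = 0.413) were not called, nor was Tfam, which packages mitochondrial DNA (-0.14, adjusted p = 0.114). Transcript levels of a factor do not measure its activity.

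Some markers of dividing cells and of other cell types were also higher, and their part in the results was not tested. Their counts stand against 12.5% higher and 7.18% lower over all genes. A summed intensity is set by the brightest probe sets of its list. All 19 mitosis genes measured were higher in Rictor-null TFH, with a median log2 fold change of 0.52, and their summed intensity was 5690 to 5748 in Rictor-null TFH, against 3777 to 3950 in WT TFH. Of 22 myeloid markers, 7 were higher and 0 lower (median 0.12), with sums of 3905 to 4158 in Rictor-null TFH, against 3536 to 3597 in WT TFH. Ctss made up most of these sums and was not called (-0.04). Itgax (CD11c) read 145.4 and 142.2 in Rictor-null TFH, against 54.4 and 45.6 in WT TFH. The others called higher were Lyz1 (0.79), Lyz2 (0.77), Itgam (0.64), Cst3 (0.47), Tyrobp (0.41) and S100a8 (0.31), and 15 were not called. Of the 22, 8 were dimmer than the median probe set, Cd14, C1qa and Adgre1 among them. Of 17 B cell markers, 6 were higher and 1 lower (median 0.05), with sums of 4247 to 4422 in Rictor-null TFH, against 4035 to 4146 in WT TFH, and 10 dimmer than the median probe set, Cd79a and Ms4a1 among them. Jchain read 378.3 and 353.0 in Rictor-null TFH, against 126.3 and 112.9 in WT TFH, and Ighm, the brightest of the list, was not called (0.02). Of 8 NK and CD8 T cell markers, 4 were higher and 1 lower (median 0.27), with sums of 879.3 to 1009 in Rictor-null TFH, against 506.6 to 512.7 in WT TFH, and 3 below the median. The summed intensity of the 12 TFH identity genes was 19862 to 20040 in Rictor-null TFH, against 20887 to 21354 in WT TFH, and most of it came from the uncalled Cd3d, Cd3g and Icos.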

How the data were processed

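Gene expression was measured on 4 one-color Affymetrix mouse arrays, 2 of Rictor-null and 2 of WT TFH cells, grouped by the sample titles. The authors deposited 1 linear intensity per probe set, already scaled between arrays (array medians 20.0 to 20.4). Per the labels MAS5 and RMA were used, with no versions, and it is unstated which of the 2 gave these values. The number of arrays limits the precision. The series text gives at least 5 mice per sample, and a legend of the study gives other mouse numbers, which nothing settles. The sort gate of these cells was described elsewhere and is not used here.

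Of 45037 probe sets, 34945 had 1 gene symbol in the platform annotation, 932 had several and 9160 had none. The brightest probe set by its mean over the 4 arrays was kept per gene (18193 genes, 9010 with more than 1 probe set). All 47 members matched RefSeq by Entrez number. Values were taken as log2(intensity + 16) and fitted with limma 3.58.1 in R 4.3.3 (lmFit, eBayes with a trend), with Benjamini-Hochberg adjustment over all genes at 0.05. The fit was tested on simulated data with independent normal noise whose spread followed the mean intensity. That is close to what the fit assumes, so the simulation does not check the calls made here. Intervals are at 95%. The arrays are separate pools by their labels, with nothing more said of their independence. The members and the other gene lists were chosen with earlier results of these data known, so counts over them are descriptions and no list was tested.

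Full values were given for AA467197, Ndufa4, Cycs, Cyc1 and Atpif1, for up to 4 members per complex with the largest called change and no overlap, and for tissue-restricted forms beside their common forms. From other lists, up to 3 genes with the smallest adjusted p were given. Genes named beyond that rule (Uqcrc1, Atp5d, Nrf1, Gabpa, Tfam, the identity genes and the markers) were added after their values were seen. Alternatives were median centering, quantile normalization, leaving out dim genes, the mean of all probe sets, eBayes without a trend, a replicate block, leaving out each array, a pseudocount of 1, adjustment over all probe sets, and the methods' one-tailed t-test.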

Additional observations from a re-analysis of the deposited data

How the results depend on the processing

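The 26 members higher in Rictor-null TFH stayed at 22 to 27 under the other scalings, filters, probe set rules and variance model, and at 17 to 26 with 1 array left out. The 2 lower members were 3 with quantile normalization, 1 with the mean of all probe sets, without the trend or with adjustment over all probe sets, and 1 to 3 with 1 array left out. Leaving out the probe sets named _s_at or _x_at, an alternative chosen after seeing the data, gave 24 higher and 1 lower among 45 members. The share called over all genes was counted for the main fit only. The methods' t-test was taken one-tailed in the direction each gene showed, which is laxer than a 2-sided test at the same threshold. It gave 26 higher and 4 lower members at an unadjusted 0.05, and the share over all genes was not counted. After Benjamini-Hochberg adjustment it gave 0 and 0. AA467197 (log2 fold change 1.45, adjusted p = 0.0658) and Ndufa4 (0.41, adjusted p = 0.0949) then also missed the threshold. This t-test estimates each gene's spread from 2 arrays per group. Under every other alternative both genes kept their call, at 1.41 to 1.48 for AA467197 and 0.36 to 0.47 for Ndufa4 with 1 array left out. AA467197 was listed with its difference already known, so for that gene this is a description and not support. Other scalings moved the median of all genes to -0.00 and 0.00, against 0.01.

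Of the 26 members, 15 kept their call under every alternative but the adjusted t-test: Uqcr10, Uqcr11, Uqcrh, AA467197, Ndufa4, Cox7a2, Cox6c, Cox6b1, Atp5l, Atp5mpl, Atp5md, Atp5h, Atp5o, Atp5j2 and Atp5j. How many of all genes kept their call in this way was not counted. AA467197 is among the 15, though its difference was known when it was listed. Uqcrc1 (lower) lost its call with the mean of all probe sets, without the trend, with adjustment over all probe sets and with the t-test, besides the arrays named above. Directions turned for uncalled Cox5a with quantile normalization (-0.0056) and the mean of all probe sets (-0.054), for uncalled Cox8c with the mean of all probe sets (8.26e-04), and for Atp5c1 without the _s_at and _x_at probe sets (-0.15). With 1 array left out they turned for some uncalled members, whose values spanned -0.0059 to 0.094 for Uqcrfs1, -0.011 to 0.079 for Cox6b2, -0.0087 to 0.053 for Cox5a, -0.070 to 0.033 for Cox7b2, -0.14 to 0.080 for Atp5b (0.0051 without WT replicate 2) and -0.20 to 0.013 for Atp5a1, which was called lower without Rictor-null replicate 2. The causes were not tested.

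Arrays of the same number share only the number: their deviations from the group means correlated at -0.03 over genes. With the replicate block, 26 members were higher and 2 lower, AA467197 stood at 1.45 and Ndufa4 at 0.41, and no member's call changed. At low signal a fold change on the log2(intensity + 16) scale is understated, which bears on the tissue-restricted forms and on AA467197.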
